A study of Mus musculus with 16 samples.

Results

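The genes described here are 9 that mark the repair Schwann cell and its trophic output: the transcription factor genes *Jun*, *Olig1* and *Runx2*, the neurotrophic factor genes *Gdnf*, *Bdnf* and *Artn*, and the signaling ligand genes *Shh*, *Fgf5* and *Lif*. They were chosen as a list of names, and each was read at the transcript cluster (the set of array probes for a gene) that carries its symbol. Of the 9, 8 were measured among the 19505 genes with a symbol on the array, each on 1 cluster. *Runx2*, a Runt-domain factor of bone formation, was not analysed here because no cluster in the annotation used carries its name.

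The arrays measured RNA of whole sciatic nerve from mice in 4 groups, with 4 arrays per group. *Becn1* encodes Beclin 1, a core component of the lipid kinase complexes that act in autophagy and in endosomal trafficking. *Becn1* cKO mice, taken at 2 months and at postnatal day 10 (P10), were *Becn1* fl/fl with a Cre transgene, with loxP sites around part of the gene and Cre expressed in Schwann cells and their embryonic precursors. Control mice of both ages are labelled wild-type. By the methods of the study its controls carried floxed alleles without Cre (*Becn1* fl/fl or *Becn1* fl/+), so all groups can share floxed alleles and the controls lack Cre. Axons, fibroblasts, endothelial cells and immune cells of these nerves are not targets of this Cre, males and females were both used in the study, and no source used here says whether each array held a different animal. The p-values therefore measure the spread between these arrays, which may be technical.

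After nerve injury, myelinating Schwann cells lose their myelin program and take on a repair state. The AP-1 factor c-Jun, the product of *Jun*, is required for that state, and repair Schwann cells secrete factors that keep injured neurons alive and guide regrowing axons. Several of the secreted products act in pairs of ligand and receptor. GDNF and artemin bind GFRα co-receptors that signal through RET, and BDNF binds TrkB (*Ntrk2*) and p75NTR (*Ngfr*). Sonic hedgehog binds Patched with the help of co-receptors, and LIF binds a receptor of LIFR and gp130.

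Because *Jun* is both the best known regulator of the group and a gene of it, the AP-1 motif TGANTCA was searched on both strands in the RefSeq promoters of the group (GRCm38.p6, 300 bases, from 250 before to 50 after the start site). The promoter table held 14 promoters of 7 of the 9 genes, with none for *Shh* and *Olig1*. The motif stood in 2 of these 14, and in 7.8% of all 32851 promoters in the table. The matches lay 228 bases before the start of *Lif* (promoter chr11:4257318-4257617, plus strand) and 152 bases before a start of *Bdnf* (promoter chr2:109676782-109677081, plus strand), and are shown with the motif in capitals and 10 bases on each side:
*Lif*: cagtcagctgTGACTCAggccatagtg
*Bdnf*: cccacaaaaaTGAATCAaggtaatttc
On both strands, the RUNX motif TGNGGT stood in 6 of the 14 promoters and in 45.8% of all, and the E-box CANNTG, the motif of basic helix-loop-helix factors such as OLIG1, in 12 of the 14 and in 72.3% of all. Counted by gene, AP-1 stood in 2 of the 7, RUNX in 6 and the E-box in 6. The share by gene over all genes was not counted. A match of letters is a description of the sequence and not evidence of binding.

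All values are on the log2 scale of the robust multiarray average (RMA), on which a difference of 1 is a factor of 2. Array medians lay between 6.497 and 6.583, and arrays correlated at 0.976 to 0.994 within groups and at 0.933 to 0.978 between groups. *Becn1* itself had 8.24, 8.23, 8.18 and 8.10 in the cKO arrays at 2 months, against 8.53, 8.44, 8.46 and 8.36 in control arrays. At P10 it had 8.21, 8.12, 8.30 and 8.39 in cKO arrays, against 8.62, 8.57, 8.52 and 8.72 in control arrays. The groups did not overlap at either age, and *Becn1* fell by 0.26 at 2 months (limma, adjusted p = 0.0312) and by 0.35 at P10 (adjusted p = 0.0397). Which part of the transcript its probes cover was not examined. The call at 2 months was lost without replicate 3 or 4 of the cKO arrays or replicate 1, 2 or 3 of the controls (adjusted p up to 0.102), and the call at P10 was lost on leaving out each array in turn except replicate 4 of the cKO group (adjusted p up to 0.131).

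Over all genes, 18.5% were called higher and 15.5% lower in cKO nerves at 2 months, and 5.48% higher and 7.44% lower at P10. Among the marker lists for the cells of the nerve, the myelin list had 8 of 9 genes lower in cKO nerves at 2 months and 9 of 9 at P10. At 2 months 9 of 11 macrophage genes were higher and 1 was lower, and the list mean lay between 9.16 and 9.37 in cKO arrays against 7.74 and 8.21 in control arrays, and none was called at P10. Mitosis genes were higher for 7 of 7 at both ages. Of 7 Schwann cell genes, 3 were higher and 4 lower at 2 months, and 2 were higher and 1 lower at P10. Fibroblast genes were lower for 5 of 7 and higher for 1 at 2 months and lower for 4 at P10, endothelial genes were lower for 3 of 8 at 2 months and 7 at P10, and 4 of 6 T cell genes were higher at 2 months. Adipocyte genes were lower for 5 of 7 at 2 months and 7 of 7 at P10, smooth muscle genes for 4 of 8 and 5 of 8, neuron genes for 4 of 9 and 0, perineurial genes for 3 of 6 and 0, and none of 12 skeletal muscle genes was called at either age. In a bulk sample, fewer cells of a type and less RNA per cell cannot be told apart, and what the lists contribute to the values given next was not tested.

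None of the 8 measured genes passed the test between cKO and control nerves at either age, while 34.0% of all genes did at 2 months and 12.9% at P10 (limma, Benjamini-Hochberg over 19505 genes, adjusted p under 0.05). None reached an unadjusted p under 0.05, and the smallest adjusted p was 0.12 at 2 months and 0.266 at P10. The median difference of the 8 genes, cKO minus control, was -0.08 at 2 months and 0.05 at P10, beside -0.02 and 0.00 over all genes. At 2 months 3 of the differences were above 0 and 5 below, and at P10 4 were above and 4 below. In size, 7 of the 8 differences at 2 months were under the median absolute difference of all genes (0.22), as were 6 of the 8 at P10 (median 0.15). With 4 arrays a group, the sign of such small differences turned in 6 of the 8 genes at 2 months and in 2 at P10 when 1 array or another was left out, without a call.

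Replicate 1 of the cKO nerves at 2 months was the highest array of its group in 6 of the 8 genes. Averaged over the 8 genes it stood at 5.95, where the other 3 arrays of the group had 5.64 to 5.66 and the control arrays of that age 5.68 to 5.84.

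The 95% confidence intervals say how large a change could have gone unseen. Over the 8 genes they ran from -0.51 to 0.57 at 2 months and from -0.54 to 0.70 at P10, so that a log2 difference of 1 in either direction lay outside all 16 intervals. For *Gdnf* at 2 months the upper bound was 1.48-fold, and for *Artn* at P10 it was 1.62-fold, the highest upper bounds at their ages. The intervals are on the RMA scale. The scans were not used here, so the values could not be set against background, and arrays are known to understate differences of dim genes. Signal also depends on the probes of a cluster, so levels are not set against each other here, but the place of each gene in the array tells how dim its reading was. Among all genes with a symbol, the share with a lower mean value was 84.4% for *Jun*, 52.2% for *Shh*, 47.9% for *Lif*, 30.1% for both *Gdnf* and *Fgf5*, 25.1% for *Artn*, 22.2% for *Olig1* and 10.8% for *Bdnf*. *Bdnf*, *Artn* and *Olig1* were below 5.3571, the mean level under which 30% of genes lay. *Gdnf* (5.3676) and *Fgf5* (5.3636) stood just above it.

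**Figure D1:**
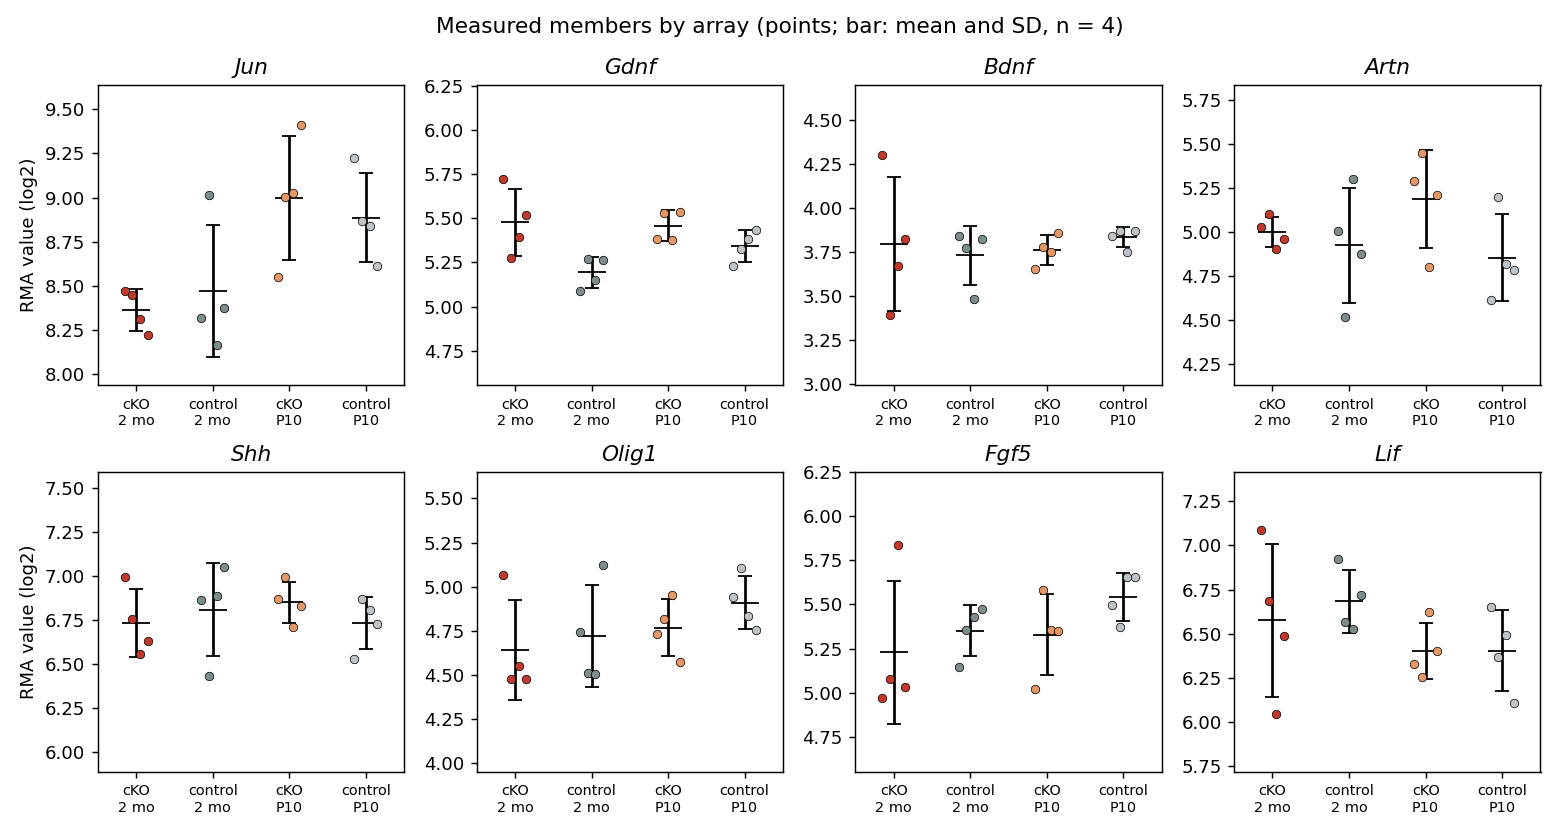
RMA values (log2) of the 8 measured genes in each of the 16 arrays, with cKO left of control at 2 months and then at P10; points are arrays, horizontal bars are means and vertical bars are SD (n = 4), and all panels span the same number of log2 units. The groups overlap between genotypes in every panel except *Gdnf* at 2 months, where the lowest cKO array (5.273) sits next to the highest control array (5.272).

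*Jun* (transcript cluster TC0400003079.mm.2, chr4:95049036-95052222 in GRCm38.p6), the AP-1 factor gene, had 8.47, 8.45, 8.31 and 8.22 in cKO nerves at 2 months, against 8.32, 9.01, 8.17 and 8.38 in control nerves. At P10 it had 8.55, 9.002, 9.03 and 9.41 in cKO nerves, against 9.22, 8.87, 8.84 and 8.61 in control nerves. The genotypes overlapped at both ages, and a single control array at 2 months, replicate 2, stood at the level of the P10 arrays. The difference between cKO and control nerves was -0.11 at 2 months (SE 0.15, 95% interval -0.43 to 0.22, adjusted p = 0.647) and 0.11 at P10 (SE 0.17, interval -0.25 to 0.47, adjusted p = 0.771). Without replicate 2 of the controls the difference at 2 months was 0.08, and without replicate 4 of the cKO arrays that at P10 was -0.03. The effect of the deletion at 2 months minus that at P10 was -0.22 (SE 0.25, adjusted p = 0.643). By immunofluorescence, the study reports a higher percentage of c-Jun-positive nuclei in cKO nerves at P10. That is a measure of protein in nuclei, on which the RNA of whole nerve given here does not bear.

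Set by age, the *Jun* values lay further apart. In cKO nerves *Jun* averaged 8.36 ± 0.12 at 2 months and 8.997 ± 0.351 at P10 (SD, n = 4 each), without overlap. It fell by 0.63 at 2 months (SE 0.17, interval -0.99 to -0.27, adjusted p = 0.00782), a ratio of 0.64, and it was the 1 gene of the 8 called, where 29.9% of all genes were called and 31.9% did not overlap. In control nerves *Jun* averaged 8.47 ± 0.37 at 2 months and 8.89 ± 0.25 at P10, with overlapping arrays, a difference of -0.42 (SE 0.17, interval -0.78 to -0.06) that did not pass the test (adjusted p = 0.0787). None of the 8 genes was called with age in control nerves, against 29.0% of all genes, and none was without overlap, against 26.0%.

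The lack of a call for *Jun* in control nerves rested on single arrays. Without replicate 2 of the controls at 2 months the difference was -0.60 (adjusted p = 0.0085), and without replicate 4 of the controls at P10 it was -0.51 (adjusted p = 0.0406). In the first of these arrays the mean of 12 immediate early genes, which react within minutes to dissection and stress, was 7.61, against 7.37 to 7.41 in the other 3 control arrays of that age, and 12 skeletal muscle genes averaged 7.43, where those 3 arrays had 5.86 to 6.76. In the second, which held the lowest *Jun* value of the P10 controls, the immediate early mean was 7.69, against 7.36 to 7.50 in the other 3, and the skeletal muscle average was 11.82, where those 3 had 7.11 to 9.48. The part of these values in the *Jun* level was not tested.

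The fall of *Jun* with age in cKO nerves stood beside other shifts. Of all 19505 genes, 3137 were called higher and 2698 lower in this comparison (29.9% together). The immediate early mean ranged from 7.54 to 7.72 in cKO nerves at 2 months and from 7.51 to 7.91 at P10. Of its 12 genes, 2 were higher and 2 lower, near the share over all genes. Macrophage genes were higher at 2 months for 10 of 11 (list mean 9.16 to 9.37 at 2 months, against 7.38 to 7.81 at P10), mitosis genes lower for 7 of 7 (7.06 to 7.52, against 8.33 to 8.72), and skeletal muscle genes lower for 5 of 12 (5.54 to 7.81, against 6.398 to 9.61). Their part in the *Jun* difference was not tested. It was called in cKO nerves whichever array was left out, with adjusted p between 0.00169 and 0.0381.

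**Figure D2:**
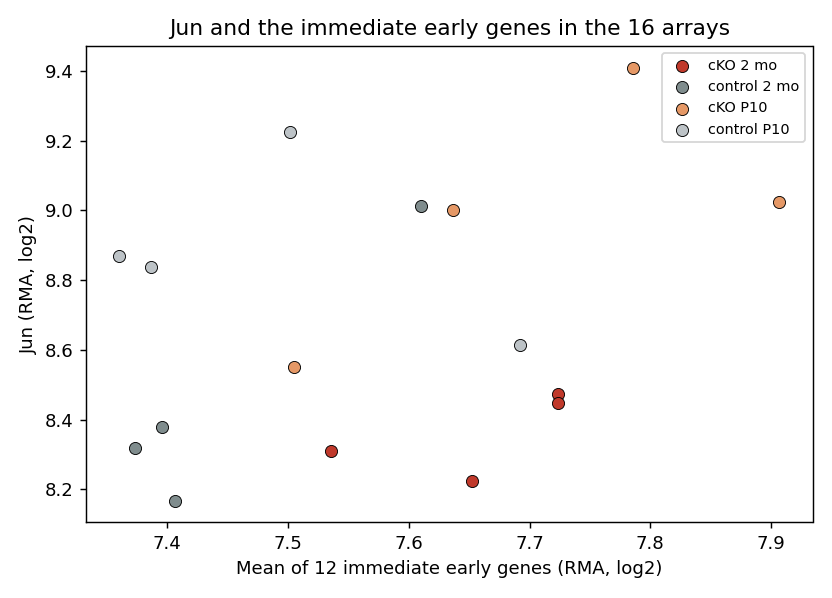
*Jun* (RMA, log2, vertical axis) against the mean of 12 immediate early genes (RMA, log2, horizontal axis) in each of the 16 arrays, colored by group. The 4 cKO arrays at 2 months lie at *Jun* values of 8.22 to 8.47 with immediate early means of 7.54 to 7.72, inside the range of 7.36 to 7.91 of the P10 arrays, and 1 control array at 2 months (7.61, 9.01) lies apart from the other 3.

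The 3 genes whose values followed *Jun* most closely over the 16 arrays were *B4galt3*, which encodes a galactosyltransferase (Pearson r = 0.88), *Cggbp1*, which encodes a CGG repeat binding protein (r = 0.87), and *Wdr82*, which encodes a subunit of histone methyltransferase complexes (r = 0.85). Within groups the coefficients were 0.87, 0.79 and 0.89 in the same order. These are descriptions of likeness over arrays that share 4 groups.

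*Gdnf* (TC1500000051.mm.2, chr15:7810048-7837580), the survival factor of motor and sensory neurons, came closest to a difference between genotypes at 2 months. It had 5.72, 5.27, 5.40 and 5.52 in cKO nerves, against 5.09, 5.27, 5.15 and 5.27 in control nerves. No control array reached the lowest cKO array, but the lowest cKO value was 5.2727 and the highest control value 5.2719. Of all genes, 33.4% were without overlap in this comparison. The difference was 0.28 (SE 0.13, interval -0.0012 to 0.57), 1.22-fold, and it did not pass the test (adjusted p = 0.12, and 0.0512 to 0.304 over the alternatives). Without replicate 1 of the cKO arrays it was 0.20 (adjusted p = 0.304).

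At P10 *Gdnf* had 5.38, 5.53, 5.38 and 5.54 in cKO nerves, against 5.23, 5.33, 5.38 and 5.43 in control nerves, with overlap. The difference was 0.11 (SE 0.13, interval -0.16 to 0.39, adjusted p = 0.67), and none of the 8 genes was without overlap at this age, against 16.9% of all genes. The difference between the ages in the effect of the deletion was 0.17 (SE 0.17, adjusted p = 0.599), and none of the 8 genes was called in that comparison, against 12.3% of all genes.

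*Artn* (TC0400003382.mm.2, chr4:117925908-117930795) encodes artemin, a ligand of sensory and sympathetic neurons in the same family. At P10 it had 5.29, 5.45, 4.80 and 5.21 in cKO nerves, against 4.61, 5.20, 4.82 and 4.79 in control nerves. With 3 cKO arrays above every control array and 1 among the low ones, the groups overlapped, and the difference of 0.33 (SE 0.17, interval -0.03 to 0.70) was the largest of the 8 genes at that age without passing the test (adjusted p = 0.266, and 0.113 to 0.519 over the alternatives). At 2 months *Artn* had 5.03, 5.10, 4.90 and 4.96 in cKO nerves, against 5.01, 4.52, 5.30 and 4.87 in control nerves, where the cKO arrays lay inside the control range (difference 0.07, interval -0.26 to 0.41, and -0.06 without replicate 2 of the controls).

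*Bdnf* (TC0200001624.mm.2, chr2:109674700-109727043), the neurotrophin that signals through TrkB, had 4.30, 3.39, 3.67 and 3.82 in cKO nerves at 2 months, against 3.84, 3.77, 3.48 and 3.83 in control nerves, and 3.65, 3.78, 3.75 and 3.86 in cKO nerves at P10, against 3.84, 3.87, 3.75 and 3.87 in control nerves. The highest and the lowest of these 16 values both came from cKO nerves at 2 months. The differences were 0.07 (SE 0.17, interval -0.30 to 0.43) and -0.07 (SE 0.11, interval -0.32 to 0.17). At 2 months the difference was -0.10 without replicate 1 of the cKO arrays and -0.02 without replicate 3 of the controls.

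*Shh* (TC0500002136.mm.2, chr5:28456840-28467101) encodes the hedgehog ligand that Schwann cells are known to switch on after injury. It had 6.996, 6.75, 6.56 and 6.63 in cKO nerves at 2 months, against 6.86, 6.43, 6.89 and 7.05 in control nerves. Its P10 values were 6.87, 6.99, 6.71 and 6.83 in cKO nerves, against 6.53, 6.87, 6.81 and 6.73 in control nerves. All 4 groups overlapped, their means lay within 0.12 of each other, and the differences between genotypes were -0.07 (interval -0.38 to 0.24, and 0.0074 without replicate 4 of the controls) and 0.12 (interval -0.15 to 0.39).

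*Olig1* (TC1600000999.mm.2, chr16:91269769-91271939), a basic helix-loop-helix factor gene known from oligodendrocytes, had 5.06, 4.48, 4.55 and 4.48 in cKO nerves at 2 months, against 4.74, 4.51, 4.51 and 5.12 in control nerves. Its P10 values were 4.73, 4.82, 4.95 and 4.57 in cKO nerves, against 4.94, 5.11, 4.84 and 4.76 in control nerves. Each genotype had 1 array near 5.1 at 2 months, and the groups overlapped at both ages. The differences were -0.08 (interval -0.45 to 0.29, and 0.06 without replicate 4 of the controls) and -0.14 (interval -0.44 to 0.16).

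*Fgf5* (TC0500000948.mm.2, chr5:98254184-98277033), a fibroblast growth factor gene, had 4.97, 5.08, 5.84 and 5.03 in cKO nerves at 2 months, against 5.15, 5.36, 5.43 and 5.47 in control nerves. In the P10 arrays it had 5.02, 5.58, 5.36 and 5.35 in cKO nerves, against 5.49, 5.37, 5.65 and 5.65 in control nerves. At 2 months 3 of the cKO arrays lay below every control array and 1 lay above every one of them. The differences were -0.12 (SE 0.18, interval -0.51 to 0.26, adjusted p = 0.659) and -0.21 (SE 0.15, interval -0.54 to 0.11, adjusted p = 0.443). Without replicate 3 of the cKO arrays, the high one, the difference at 2 months was -0.32 (adjusted p = 0.102), beyond the median absolute difference of all genes.

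*Lif* (TC1100000041.mm.2, chr11:4257568-4272514), which encodes a cytokine of the interleukin-6 family, had 7.09, 6.68, 6.05 and 6.49 in cKO nerves at 2 months, against 6.92, 6.57, 6.53 and 6.72 in control nerves. At P10 it had 6.33, 6.26, 6.62 and 6.399 in cKO nerves, against 6.65, 6.37, 6.49 and 6.11 in control nerves. The cKO arrays at 2 months held both the highest and the lowest of the 16 values, and the groups overlapped at both ages. The differences were -0.11 (interval -0.50 to 0.28) and -0.0014 (interval -0.31 to 0.31). At 2 months the difference was 0.07 without replicate 3 of the cKO arrays, the low one, and at P10 it took either sign.

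**Figure D3:**
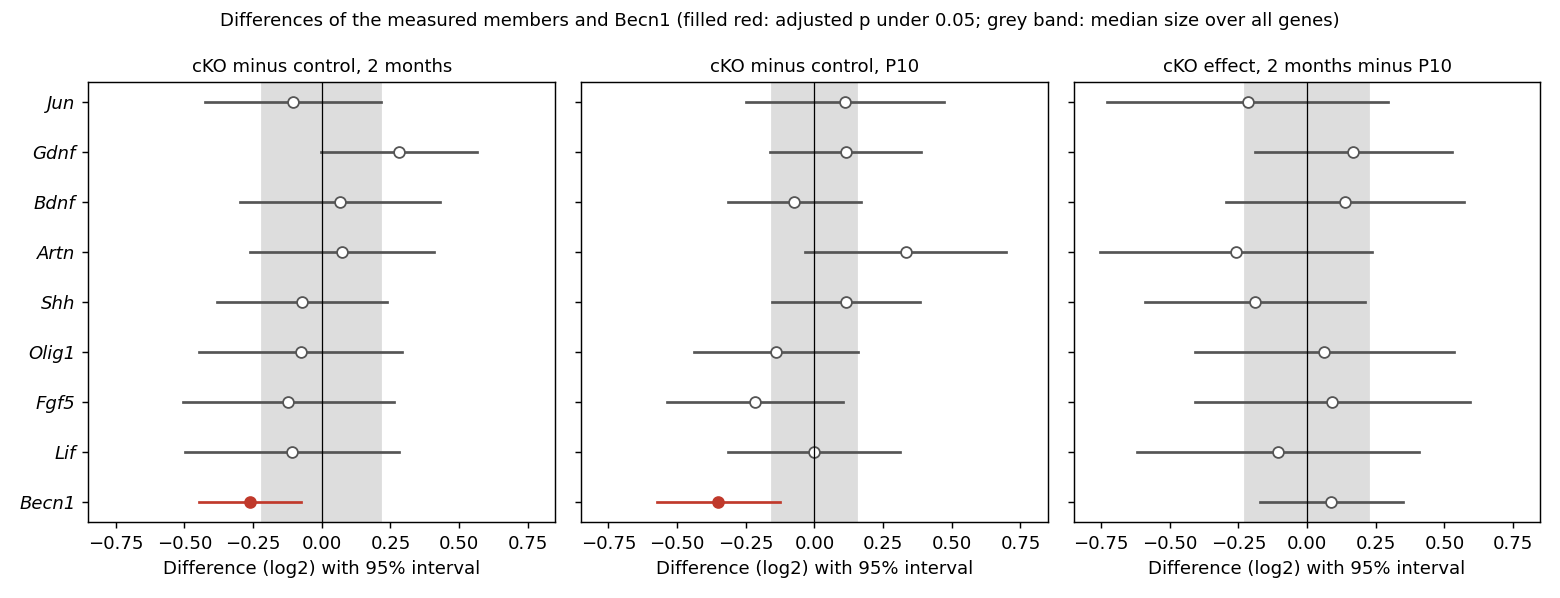
Differences (log2, with 95% intervals) of the 8 measured genes and of *Becn1*, for cKO minus control at 2 months, cKO minus control at P10, and the effect at 2 months minus that at P10. Filled red marks an adjusted p under 0.05, which only *Becn1* reached in the panels of genotype, and the grey band is the median absolute difference of all genes (0.22 at 2 months, 0.15 at P10).

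In the order of the 4 group means of each gene, 20 of 24 neighboring pairs were closer than the larger of their SDs. The 4 wider gaps were between the control groups of *Jun* (8.47 at 2 months, 8.89 at P10) and of *Fgf5* (5.35 at 2 months, 5.54 at P10), and, for *Gdnf*, between the control groups (5.19 at 2 months, 5.34 at P10) and between the genotypes at P10 (5.46 in cKO nerves, 5.34 in control nerves). *Jun* and *Olig1* were ordered by age, with both P10 groups above both groups of 2 months, and *Lif* had the opposite order by age. *Gdnf* was ordered by genotype, with both cKO groups (5.48 at 2 months, 5.46 at P10) above both control groups. *Artn* had the same order by genotype, and *Fgf5* had both cKO groups below both control groups. These orders were not tested, and most of their steps were within the spread. In *Bdnf*, *Artn*, *Shh*, *Olig1* and *Lif* no neighbors differed beyond their spread.

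The pathways around these genes were read in the same nerves. As given above, 18.5% of all genes were called higher and 15.5% lower in cKO nerves at 2 months, and 5.48% higher and 7.44% lower at P10. Of the 4 ligands of the GDNF family, the remaining *Nrtn* (neurturin) and *Pspn* (persephin) were not called either: *Nrtn* differed by -0.01 at 2 months and -0.05 at P10, and *Pspn* by -0.20 and 0.21. Of the neurotrophins, *Ntf5* (neurotrophin-4) was measured beside *Bdnf* and differed by -0.12 and -0.03, without a call. Thus 0 of 4 and 0 of 2 ligands were called.

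Of the receptors of these ligands, in a list that also holds the sortilin family, 6 of 11 were lower and 1 was higher in cKO nerves at 2 months, and 6 were lower and 2 higher at P10. Their median differences were -0.59 and -0.62. *Gfra2*, the co-receptor of neurturin, lay between 7.41 and 8.14 in cKO arrays at 2 months, against 9.42 and 10.24 in control arrays, and fell by 1.97 at 2 months (SE 0.17, adjusted p = 5.42e-07) and by 1.14 at P10 (SE 0.19, adjusted p = 0.000751). *Ntrk2*, the gene of the BDNF receptor TrkB, lay between 7.49 and 7.93 in cKO arrays at 2 months, against 9.002 and 9.52 in control arrays. It fell by 1.55 at 2 months (SE 0.13, adjusted p = 2.68e-07) and by 0.62 at P10 (SE 0.11, adjusted p = 0.00129), and the effects differed between the ages by -0.93 (adjusted p = 0.00103).

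*Ntrk3*, the receptor gene of neurotrophin-3, fell by 1.29 at 2 months (adjusted p = 1.15e-05) and differed by -0.23 at P10 (adjusted p = 0.297), with a difference between the ages of -1.06 (adjusted p = 0.00231). *Gfra3*, the co-receptor of artemin, fell by 1.54 at P10 (4.86 to 5.75 in cKO arrays, against 6.60 to 7.14 in control arrays, adjusted p = 5.46e-05), and at 2 months differed by 0.31 without a call (adjusted p = 0.382). The effects at the 2 ages differed by 1.86 (SE 0.35, adjusted p = 0.00118).

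The higher genes of the list were *Sort1* and, at P10, *Gfra1*. *Gfra1*, the co-receptor of GDNF, averaged 10.04 ± 0.09 in cKO nerves at P10 and 9.39 ± 0.10 in control nerves (SD, n = 4 each), without overlap, and rose by 0.64 (SE 0.10, adjusted p = 0.000473). At 2 months it averaged 9.42 ± 0.20 in cKO nerves and 9.35 ± 0.13 in control nerves and was not called. *Sort1*, the gene of sortilin, a partner of p75NTR in binding proneurotrophins, rose by 0.40 at 2 months with overlapping arrays (adjusted p = 0.00643) and by 0.76 at P10 (adjusted p = 0.000163). The lower genes included its relatives *Sorcs1* (-0.70 at 2 months, -0.80 at P10) and *Sorcs3* (-0.59 at 2 months), along with *Ret*, the signaling receptor gene of the GDNF family, which fell by 0.65 at 2 months (adjusted p = 0.00102) and by 0.72 at P10 (adjusted p = 0.0106). *Ngfr* fell by 0.65 at P10 (adjusted p = 0.00514). At 2 months *Ngfr* was not called (adjusted p = 0.0689), though it passed the test in 4 of 14 alternatives. These genes were named after their values were seen.

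In the hedgehog list *Shh* was not called, while 11 of 15 genes were lower and 0 higher at 2 months, and 4 were lower and 0 higher at P10. The median of the list was -0.59 at 2 months and -0.15 at P10. *Dhh*, the hedgehog ligand that Schwann cells make in development, fell by 0.50 at 2 months (SE 0.16, adjusted p = 0.0271) and by 1.01 at P10 (SE 0.11, adjusted p = 2.43e-05). The call at 2 months was lost without replicate 1, 3 or 4 of the cKO arrays or replicate 1 or 3 of the controls (adjusted p up to 0.0926). At P10 its arrays lay between 8.77 and 8.95 in cKO nerves, against 9.61 and 10.04 in control nerves. *Disp1*, needed to release hedgehog ligands, fell by 1.20 and 0.87, and the co-receptor gene *Cdon* fell by 1.63 and 0.67, at 2 months and P10 in that order. *Gli1*, a transcriptional target of the pathway, fell by 0.82 at 2 months (adjusted p = 9.7e-05) and differed by -0.15 at P10 (adjusted p = 0.551), and these effects differed by -0.67 (adjusted p = 0.0183).

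Of 14 genes of FGF ligands and receptors, 6 were lower at 2 months and 5 at P10, with 0 higher at either age. *Fgf1* lay between 7.55 and 8.26 in cKO arrays at 2 months, against 10.50 and 11.21 in control arrays, and fell by 3.04 (SE 0.16, adjusted p = 3.58e-09). At P10 it fell by 2.14 (SE 0.11, adjusted p = 1.4e-08). *Fgf7* fell by 1.89 and 1.14, and *Fgf2* by 1.36 and 0.64, at 2 months and P10 in that order. *Fgf18* fell by 0.74 at 2 months and differed by -0.12 at P10 without a call. *Fgf5* was among the 8 genes of this list not called at 2 months.

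In the interleukin-6 family, 2 of 13 genes were higher and 3 lower at 2 months, and 0 were higher and 2 lower at P10. *Lifr*, the gene of the LIF receptor, lay between 8.48 and 8.71 in cKO arrays at 2 months, against 9.41 and 9.51 in control arrays. It fell by 0.84 at 2 months (SE 0.09, adjusted p = 2.27e-06) and by 0.70 at P10 (SE 0.10, adjusted p = 0.000165). *Stat3*, the transcription factor gene downstream of gp130, rose by 1.02 at 2 months (9.19 to 9.69 in cKO arrays, against 8.29 to 8.67 in control arrays, adjusted p = 8.06e-06) and differed by 0.26 at P10 (adjusted p = 0.258), with a difference between the ages of 0.76 (adjusted p = 0.00877). *Cntfr*, the co-receptor of ciliary neurotrophic factor, fell by 0.88 at 2 months. *Osmr*, the oncostatin M receptor gene, fell by 0.47 at P10 (adjusted p = 0.014, and 0.056 without replicate 2 of the cKO arrays).

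Around *Jun*, 4 of 16 AP-1 factor and Jun kinase pathway genes were higher and 1 was lower at 2 months, and 2 were higher and 0 lower at P10. *Mapk10*, the gene of Jun kinase JNK3, lay between 7.82 and 8.21 in cKO arrays at 2 months, against 5.60 and 6.55 in control arrays. It rose by 2.05 at 2 months (SE 0.17, adjusted p = 3.22e-07) and by 0.83 at P10 (SE 0.17, adjusted p = 0.00445), more at 2 months by 1.22 (adjusted p = 0.00387). *Fos*, whose product pairs with c-Jun in AP-1, rose by 1.31 at 2 months (8.25 to 8.62 in cKO arrays, against 6.72 to 7.45 in control arrays, adjusted p = 3.81e-06) and by 0.74 at P10 with overlapping arrays (adjusted p = 0.0155, and up to 0.0575 without replicate 3 of the cKO arrays or replicate 1 or 2 of the controls). *Fosl2* rose by 0.56 and *Junb* by 0.37 at 2 months, with adjusted p of 0.0212 and 0.0312, and neither was called at P10. Leaving out replicate 1 of the cKO arrays, or replicate 1 or 3 of the controls, ended both calls, as did replicate 2 of the cKO arrays for *Fosl2* and replicate 4 for *Junb* (adjusted p up to 0.0756 and 0.107). The lower gene was *Atf3*, an injury-induced factor gene, named after its values were seen. It averaged 7.75 ± 0.24 in cKO nerves at 2 months and 8.12 ± 0.22 in control nerves, with overlap, and its fall of 0.37 (adjusted p = 0.0493) passed the test in 5 of 14 alternatives. The call was lost without replicate 2, 3 or 4 of the cKO arrays or replicate 1, 2 or 3 of the controls (adjusted p up to 0.155).

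*Fos* and *Junb* are also immediate early genes, of which cKO nerves had 5 of 12 higher and 2 lower at 2 months, and 3 higher and 1 lower at P10. The list mean lay between 7.54 and 7.72 in cKO arrays at 2 months, against 7.37 and 7.61 in control arrays, and between 7.51 and 7.91 in cKO arrays at P10, against 7.36 and 7.69 in control arrays. *Egr3* rose by 0.73 at 2 months and by 1.32 at P10, and *Nr4a1* rose by 0.79 at 2 months. *Egr1* fell by 0.62 at 2 months and differed by 0.44 at P10 without a call. The part of dissection and handling in these values was not tested.

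Of 6 RUNX and OLIG family genes, 1 was higher at 2 months and none was called at P10. That gene was *Cbfb*, which encodes the shared partner of the RUNX factors and rose by 0.60 at 2 months (8.73 to 8.90 in cKO arrays, against 7.93 to 8.33 in control arrays, adjusted p = 0.000293). *Runx1* differed by 0.17 and 0.35, *Runx3* by 0.10 and -0.01, and *Olig3* by -0.20 and 0.21, at 2 months and P10 in that order, all without a call.

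A wider list of 29 other injury-response genes, of Schwann cells and of other cells, moved in both directions. *Ngfr*, *Atf3* and *Egr1* in it were already counted in lists above, so the counts of the lists are not separate. At 2 months cKO nerves had 12 of them higher and 10 lower, and at P10 8 higher and 3 lower, with medians of 0.08 and 0.00 that took either sign over 14 alternatives (-0.01 to 0.18 at 2 months, -0.03 to 0.04 at P10). *Id2*, whose product binds basic helix-loop-helix factors and blocks them, lay between 10.89 and 11.25 in cKO arrays at 2 months, against 7.37 and 8.59 in control arrays, and rose by 3.18 (SE 0.20, adjusted p = 2.23e-08). At P10 it rose by 2.21 (SE 0.19, adjusted p = 2.14e-06). *Megf10*, an engulfment receptor gene, rose by 2.17 and 1.95 at 2 months and P10 in that order. *Nrg1*, the gene of the Schwann cell growth factor neuregulin 1, rose 3.73-fold at 2 months and 2.27-fold at P10. *Mcam*, a cell adhesion gene, rose by 1.18 at 2 months and differed by 0.19 at P10 (adjusted p = 0.422), with a difference between the ages of 1.00 (adjusted p = 0.000164). The other higher genes at 2 months, also named after their values were seen, were *Btc*, *Tgfb1*, *Sox2*, *Pou3f1*, *Ccl2*, *Il1b*, *Ncam1* and *Tnf*. Their adjusted p in limma ran from 3.73e-07 (*Btc*) to 0.000751 (*Tnf*). Of these, *Sox2*, *Pou3f1*, *Ncam1*, *Btc* and *Tgfb1* were also higher at P10. The P10 calls of *Btc* and *Tgfb1* were lost without some arrays (adjusted p up to 0.104 and 0.0558). Not called at 2 months were *Ngfr*, *Mmp9*, *Tnc*, *Sprr1a*, *Gap43*, *Ucn2* and *Gfap*, also named after their values were seen. Their adjusted p in limma ran from 0.0689 (*Ngfr*) to 0.88 (*Gfap*), and at P10 only *Ngfr* of them was called.

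The 10 lower genes of this list at 2 months, named after their values were seen, were *Cdh2*, *Igf2*, *Stmn2*, *Egr1*, *Hbegf*, *L1cam*, *Vegfa*, *Igf1*, *Atf3* and *Bmp1*. *Cdh2*, the N-cadherin gene, averaged 7.20 ± 0.09 in cKO nerves and 8.83 ± 0.34 in control nerves (SD, n = 4 each) and fell by 1.63 (SE 0.14, adjusted p = 4.55e-07). The growth factor gene *Igf2* fell by 1.27 (SE 0.22, adjusted p = 0.000307). *Stmn2*, a microtubule regulator gene known from neurons, fell by 1.27 at 2 months (adjusted p = 2.09e-05) and by 0.69 at P10 (adjusted p = 0.0033), and the cell adhesion gene *L1cam* fell by 0.55 (adjusted p = 0.00252) and 0.71 (adjusted p = 0.00204), in that order. With *Ngfr*, *Stmn2* and *L1cam* were the 3 lower at P10. The call of *Igf1* (adjusted p = 0.0222) was lost without replicate 3 or 4 of either genotype (adjusted p up to 0.0723). Some genes of this list are also expressed by macrophages, whose markers were higher at 2 months. Others, such as *Stmn2*, are known from neurons, whose markers were lower for 4 of 9 at 2 months. The part of these cells in the counts was not tested.

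**Figure D4:**
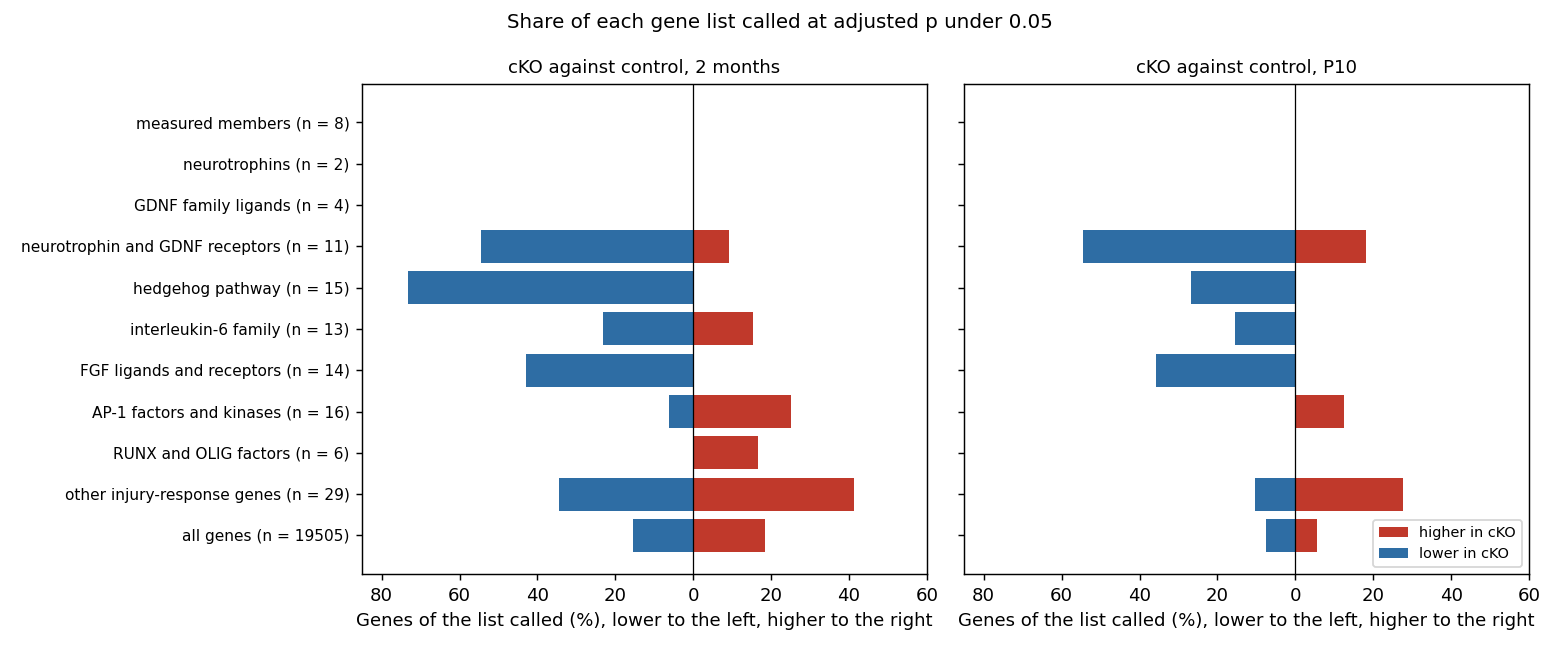
Share of the genes of each list called at adjusted p under 0.05 (percent), lower in cKO nerves to the left and higher to the right, at 2 months and at P10, with the number of genes tested beside each list and all 19505 genes at the bottom. The 8 measured genes and the neurotrophin and GDNF ligands have no bar at either age, while the receptor, hedgehog and FGF lists extend mainly to the left.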

How the data were processed

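Total RNA of whole sciatic nerves was hybridized to Affymetrix Clariom S mouse arrays, 1 colour, 16 arrays. The authors normalized the scans by RMA in the Transcriptome Analysis Console and deposited log2 values of 22206 transcript clusters, which were used as they stand. Without the scans, background could not be assessed, and precision is limited by how many arrays there are. A symbol was held by 19572 clusters and lacked by 2634; they give 19505 genes, 55 of them on several clusters, read at the cluster of highest mean. Build and scan batches of the arrays are not given in the sources used here; positions are RefSeq's. Groups follow the labels.

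Each age (8 arrays) was fitted with limma 3.58.1 in R 4.3.3 (lmFit, eBayes with an intensity trend). Changes with age and the interaction came from all 16 arrays with 4 group means. Calls used a Benjamini-Hochberg adjusted p under 0.05 over all genes. The fits were tested on simulated data. Besides the listed genes and *Becn1*, up to 4 genes of each list with the smallest p at either age, and the 3 most correlated with a called gene, were named. *Gfra1*, *Sort1*, *Sorcs1*, *Sorcs3*, *Ret*, *Ngfr*, *Atf3* and the further genes of the wider injury list were named after their values were seen. The genes and lists were chosen with earlier results of these data known. Alternatives were a single fit, no trend, median centring, quantile normalization, a filter on dim genes, array weights and every cluster. Further ones were the 5000 most variable clusters, SAM, a replicate block and leaving out each array. SAM is the method of the study, but was written anew here. Its 70 permutations are all the ways to divide the 8 arrays of an age into groups of 4.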

Additional observations from a re-analysis of the deposited data

Results flagged for a closer look

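Of 36 groups of 4 arrays over 9 genes (the 8 measured genes and *Becn1*), 2 held an array far from the other 3, by a gap that takes more of the group's range than the 95% critical value of Dixon's test. Chance alone gives such a gap in about 1 group of 20. *Olig1* stood at 5.0650 in replicate 1 of the cKO nerves at 2 months, against 4.48 to 4.55 in the other 3 arrays, a gap of 0.878 of the range. That array was also the highest of its group in 6 of the 8 genes, with a mean over them of 5.95, against 5.64 to 5.66 in the other 3. *Fgf5* stood at 5.8351 in replicate 3 of the same group, against 4.97 to 5.08 in the other 3, a gap of 0.872 of the range.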

How the results depend on the processing

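Of 800 alternative values for the 8 genes, 798 kept their side of the threshold, none lost a call or was called in the opposite direction, and 30 differences without a call changed sign. The 2 that gained a call were *Jun* with age in control nerves, so that the number of genes called there ran from 0 to 1 when 1 array was left out in turn. Testing only the 5000 most variable clusters, which tests fewer, gave 3680 calls over all genes at 2 months (4112 with SAM) against 6622 otherwise, 3335 against 5835 with age in cKO nerves and 3338 against 5657 with age in control nerves; only *Jun* of the 8 was among them. *Becn1* at P10 was not called without the intensity trend (adjusted p = 0.0607), after centring (0.0563) or after quantile normalization (0.0646), with its direction unchanged. Deviations of same-numbered arrays correlated at 0.03 to 0.10 at 2 months, where 3 of 4 correlated best with their own number. At P10 they correlated at -0.15 to 0.19, where 1 of 4 did. With 4 arrays a group, these values cannot decide whether replicate numbers pair the samples. With a replicate block 0 of the 8 genes were called at 2 months and 0 at P10, and *Becn1* had adjusted p of 0.0556 and 0.0781, over 6459 and 2244 genes called. Signal over background was not measurable, which limits what can be said of the dim genes *Bdnf*, *Artn* and *Olig1*. The same limit holds for *Gdnf* and *Fgf5*, which were nearly as dim.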
